A study of Homo sapiens with 12 samples.

Results

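The 36 genes described here serve homologous recombination, the Fanconi anemia pathway and the DNA damage checkpoint. They were listed by function, but with earlier results of these data known, so their share of falls is a description and no test of the pathways. Each symbol was matched to 1 Ensembl gene, and all 36 were found among the 54127 genes of the count tables. All 36 also passed the filter on low counts, which left 14501 genes for testing. The genes were measured in C4-2 cells, an androgen-independent human prostate cancer line derived from LNCaP and cultured with serum. One group was transfected with a pool of siRNAs against CHKA, the gene of choline kinase alpha (siCHKA, 6 samples), and the other with nontargeting siRNA (siNT, 6 samples). Both groups received 50 nM siRNA with the same lipid reagent in a reverse transfection, so transfection itself was shared. The labels say that the RNA came from flow sorted cells without saying what was sorted, and they give no sampling time. They do not say whether the samples were separate cultures. The paper speaks of biological triplicates and, elsewhere in the same figure legend, of 6 biological replicates, so this is not settled. The p-values therefore measure the spread between these samples, which may be technical.

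Homologous recombination repairs a double-strand break from an intact copy of the sequence, mostly the sister chromatid, and therefore works in cells that have replicated their DNA. The Fanconi anemia proteins unhook crosslinks between the DNA strands and hand the resulting break to recombination. The checkpoint kinases stop the cell cycle while this goes on. Many of these genes are transcribed mainly in the S and G2 phases, in part through E2F factors, and defects in several of them, BRCA2 and ATM among them, occur in advanced prostate cancer.

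The samples had between 10685184 and 24246055 reads on genes. On that scale 3 reads, the limit that a count of 0 allows, correspond to 0.124 to 0.281 CPM before TMM normalization. CPM is the read count scaled to the library size, and the other CPM values here are after TMM normalization. Every member was above the floor of 3 reads, with 43 to 10933 reads per sample. CHKA had 1.91 to 4.67 CPM in the siCHKA samples (median 2.31) and 36.7 to 43.3 CPM in the siNT samples (median 41.6), a log2 fold change of -3.88 (SE 0.14, adjusted p = 5.89e-13, edgeR). SE is the standard error of the fitted value, and edgeR stands for its quasi-likelihood F test, with p-values adjusted over all tested genes by the method of Benjamini and Hochberg. The siCHKA samples fell into 2 sets. Replicates 2, 4 and 6 differed from each other by a chi-square per degree of freedom of 2.52 to 4.42 and replicates 1, 3 and 5 by 4.34 to 10.3, while pairs across the sets differed by 13.6 to 27.3. The siNT samples differed from each other by 2.65 to 34.1. No sequencing batch is given in the labels. All 10 luminal prostate cancer markers examined were present, KLK3 at 3252 CPM in siNT on average, and 7 of them were lower and 3 higher after siCHKA. CD3E was at 0 reads in all 12 samples, and PTPRC, COL1A2, DCN, KRT5 and TP63 did not pass the filter. The summed level of the 11 markers of blood, endothelial, stromal and basal cells found in the tables was 16.1 to 23.5 CPM in siNT and 28.0 to 34.4 CPM in siCHKA, of which COL1A1 made up 15.0 and 26.8 CPM on average. The other markers that passed the filter did not move as a block. VWF was lower, at 3.00 CPM in siNT and 1.52 CPM in siCHKA on average. ACTA2 (0.539 and 0.964 CPM) and KRT14 (1.21 and 1.80 CPM) were higher after siCHKA. The part of these markers in the results on the repair genes was not tested.

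CHKA knockdown was accompanied by a broad fall of these repair genes. At an adjusted p below 0.05 in edgeR's test, 29 of the 36 genes were lower after siCHKA, against 30.1% of all tested genes, and 4 were higher, against 32.1%. The remaining 3, PALB2, ATM and ATR, did not pass the threshold. The log2 fold changes of all 36 had a median of -1.02, and those of all tested genes one of 0.03. Of the 29 falls, 18 were 2-fold or more, a size of fall reached by 4.51% of all tested genes. No member rose by 2-fold or more (0 with edgeR and with DESeq2, also at an unadjusted p below 0.05), while 5.41% of all tested genes did. In all 29 the highest siCHKA sample was below the lowest siNT sample, which held for 21.5% of all tested genes. The 16 proliferation markers examined, MCM7, PLK1, TOP2A and MCM3 among them, were all lower as well, with a median log2 fold change of -1.44 and a summed level of 1885 to 2004 CPM in siCHKA against 4642 to 5103 CPM in siNT. Their part in the fall of the repair genes was not tested, and in these bulk samples fewer cells of a cycling state and less RNA per cell cannot be told apart.

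**Figure D1:**
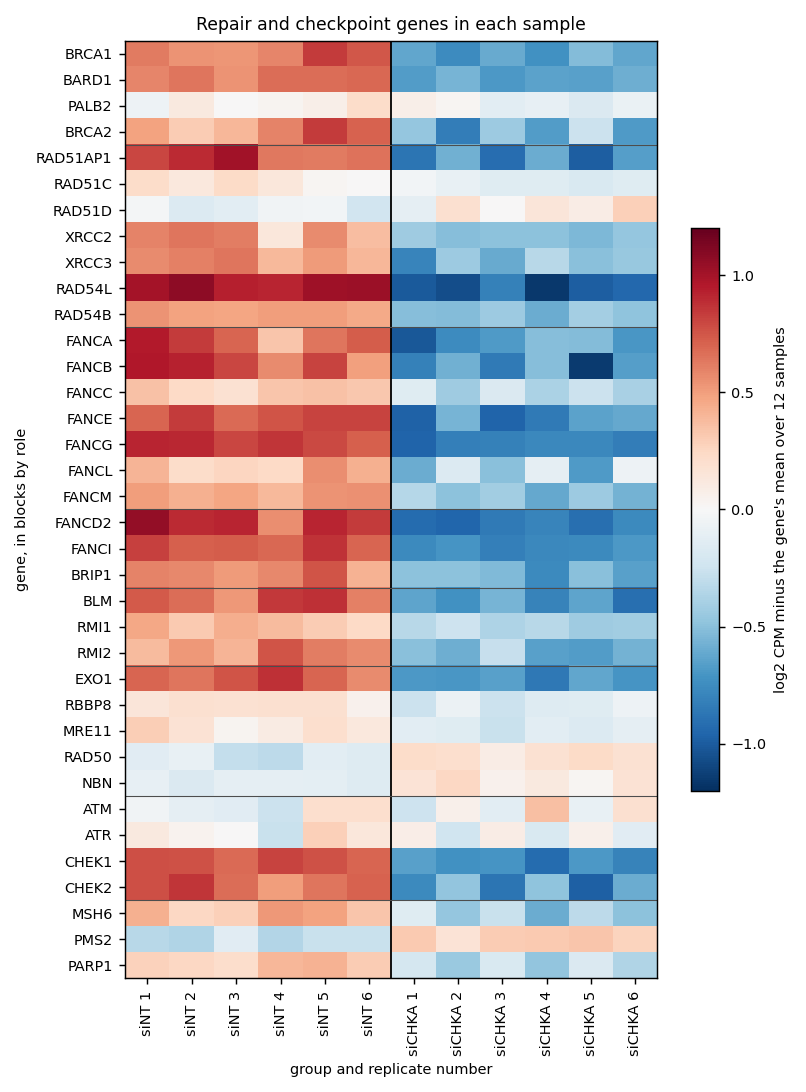
Level of each of the 36 genes in each of the 12 samples, as log2 CPM minus the gene's mean over all samples, with siNT samples on the left, siCHKA samples on the right and genes in blocks by role. The 29 genes that fell are red in every siNT sample and blue in every siCHKA sample, RAD50, NBN and PMS2 show the opposite colors, and ATM, ATR and PALB2 are mixed.

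Short stretches of sequence near the start sites of 4 members are shown because these members share an 8-base word of the kind that E2F factors are known to bind. The words TTTGGCGC and TTTCCCGC were searched on both strands in windows from 250 bases before to 50 bases after the start site in the RefSeq promoter table (GRCh38.p14), which held windows for 32 of the 36 members. A word was found for 4 of the 32 (12.5%) and for 2.75% of the 27305 genes in the table. The table also holds genes that did not pass the filter on low counts, which all 32 members did. These shares, and those of the other words below, are therefore not over like sets of genes. All 4 were lower after siCHKA, as were 80.6% of the 36 members, and the part of the word in the fall was not tested. Each stretch is written along the strand of its gene, with the word, or its reverse complement GCGGGAAA, in capitals.
FANCD2: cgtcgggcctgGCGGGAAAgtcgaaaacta
XRCC2: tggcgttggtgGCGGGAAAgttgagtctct
MSH6: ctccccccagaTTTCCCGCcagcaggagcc
FANCC: ttcgtcggaatTTTCCCGCgacgccgcggg
The FANCD2 stretch lies at chr3:10026424-10026453 on the plus strand, and its word begins 2 bases before the start site. The XRCC2 stretch lies at chr7:152676102-152676131 on the minus strand, with the word from the 22nd base of the transcript. The MSH6 stretch lies at chr2:47783137-47783166 on the plus strand, with the word from the 4th base of the transcript. The FANCC stretch lies at chr9:95317737-95317766 on the minus strand, and its word begins 46 bases before the start site. Words of the CHR type, TTTGAA and TTCGAA, which complexes that silence G2 genes are known to bind, were present for 3 of the 32 members (9.38%) and for 19.5% of all genes in the table. The word CCAAT was present for 16 of the 32 (50.0%) and for 39.7% of all genes. RAD54L, FANCG and CHEK1, which are among the members with the lowest log2 fold changes, had neither E2F word in these windows. A match describes letters and not a site that a factor was seen to bind.

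The BRCA proteins prepare resected DNA for the search for an intact copy. BRCA1 is the ubiquitin ligase that works as a dimer with BARD1, and PALB2 is the bridge between BRCA1 and BRCA2. BRCA1 (ENSG00000012048, chromosome 17, 43044295 to 43170245 on the minus strand of GRCh38) had 42.1 to 49.4 CPM after siCHKA (median 46.1) and 102 to 127 CPM after siNT (median 108). The log2 fold change was -1.29 (SE 0.06, adjusted p = 1.13e-11, edgeR). BARD1 fell to almost the same degree, from 133 ± 5.26 to 55.3 ± 1.93 CPM (SD, n = 6 each). The ratio of BRCA1 to BARD1 within a sample was 0.773 to 0.931 in siNT and 0.723 to 0.905 in siCHKA, so these ranges overlapped over most of their length. BRCA2 (ENSG00000139618, chromosome 13, 32315086 to 32400268 on the plus strand) had 55.6 to 82.7 CPM after siCHKA (median 66.9) and 122 to 177 CPM after siNT (median 144), a log2 fold change of -1.11 (SE 0.10, adjusted p = 4.14e-08, edgeR). PALB2 was at 17.0 ± 1.14 CPM after siCHKA and 18.6 ± 1.27 CPM after siNT (SD, n = 6 each), and its log2 fold change of -0.13 (SE 0.06) did not pass the threshold (adjusted p = 0.098, edgeR). An exact permutation test of its 12 values alone, two-sided, gave p = 0.0411, and the groups overlapped. The BRCA1 reads per PALB2 read within a sample numbered 5.35 to 6.78 in siNT and 2.33 to 3.14 in siCHKA, and the BRCA2 reads per PALB2 read 6.33 to 9.45 and 3.08 to 5.26. For both ratios the highest siCHKA sample was below the lowest siNT sample.

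The proteins of strand invasion included the largest fall of the 36. RAD54L, the motor protein that works on the intact duplex during strand invasion, had 10.1 to 12.9 CPM after siCHKA (median 11.3) and 43.0 to 48.0 CPM after siNT (median 45.8). Its log2 fold change was -1.997 (SE 0.06, adjusted p = 7.94e-14, edgeR), which left 25.04% of the siNT level. Of its transcript, 26.2% overlaps LRRC41 in GENCODE 44. Reads on overlapping genes are left out by the counting used, but the authors' own gene models were not used here, so how many reads this concerned is not known. RAD54B, its paralog, fell from 41.6 ± 0.836 to 21.0 ± 0.958 CPM (SD, n = 6 each). RAD51AP1, a DNA-binding partner that stimulates strand pairing, had 19.4 to 25.9 CPM after siCHKA (median 22.8) and 59.6 to 78.1 CPM after siNT (median 64.4), a log2 fold change of -1.54 (SE 0.09, adjusted p = 1.13e-10, edgeR). RAD51C, RAD51D, XRCC2 and XRCC3 form complexes that support strand invasion, and they did not move as a block. XRCC2 and XRCC3 had log2 fold changes of -0.99 and -1.04. XRCC3 shares 34.2% of its transcript with KLC1. RAD51C had 52.4 to 58.0 CPM after siCHKA (median 53.8) and 59.8 to 69.7 CPM after siNT (median 65.1), a fall of 0.25 on the log2 scale (SE 0.05, adjusted p = 0.00036, edgeR) with no overlap between the groups. RAD51D had 14.3 to 18.9 CPM after siCHKA (median 16.7) and 13.1 to 15.2 CPM after siNT (median 14.6), so the groups overlapped. Its rise of 0.21 (SE 0.07, adjusted p = 0.0203, edgeR) was not past the threshold with no filter on low counts (adjusted p = 0.108), without siCHKA replicate 6 (adjusted p = 0.058), or with siCHKA replicates 1, 3 and 5 only (adjusted p = 0.332).

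All 9 FANC genes among the members fell, and so did BRIP1. The core complex is the ubiquitin ligase that marks FANCD2 and FANCI at a crosslink. FANCL, its catalytic subunit, of whose transcript 27.3% overlaps VRK2, was at 4.86 ± 0.921 CPM after siCHKA and 7.90 ± 0.762 CPM after siNT (SD, n = 6 each), a log2 fold change of -0.68. Its partner in the ligase module, FANCB, had 3.47 to 5.47 CPM after siCHKA (median 4.67) and 11.1 to 15.4 CPM after siNT (median 13.8), a log2 fold change of -1.53 (SE 0.11, adjusted p = 2.79e-09, edgeR). FANCG, which holds FANCA in the complex, had 24.96 to 28.4 CPM after siCHKA (median 27.5) and 80.2 to 91.8 CPM after siNT (median 86.6). Its log2 fold change was -1.67 (SE 0.05, adjusted p = 6.23e-14, edgeR), and the lowest siNT sample was well above the highest siCHKA sample. FANCA, of whose transcript 27.4% overlaps ZNF276, fell by 1.41 on the log2 scale. FANCE, the subunit that contacts FANCD2, had 5.33 to 7.10 CPM after siCHKA (median 6.24) and 16.9 to 18.9 CPM after siNT (median 18.2), a log2 fold change of -1.54 (SE 0.08, adjusted p = 6.05e-11, edgeR). FANCC, with a log2 fold change of -0.59, and FANCM, the translocase that recruits the complex to DNA, with one of -0.96, were among the smaller falls of this group.

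The substrates of the ligase, FANCD2 and FANCI, were among the 8 members with the lowest log2 fold changes. FANCD2 (ENSG00000144554, chromosome 3, 10026370 to 10101932 on the plus strand) had 21.7 to 24.7 CPM after siCHKA (median 22.8) and 62.0 to 87.2 CPM after siNT (median 78.9). The log2 fold change was -1.74 (SE 0.07, adjusted p = 1.94e-12, edgeR). FANCI, its clamp partner and one of the more abundant members, had 77.9 to 84.8 CPM after siCHKA (median 80.7) and 222 to 249.7 CPM after siNT (median 226), a log2 fold change of -1.51 (SE 0.05, adjusted p = 8.21e-14, edgeR). BRIP1, a helicase that binds BRCA1, fell from 25.8 ± 2.04 to 11.6 ± 0.884 CPM (SD, n = 6 each). In all 3 the siCHKA samples spread less than the siNT samples on the CPM scale and did not overlap them. FANCD2 has partial copies elsewhere in the genome, and reads that align to several places were left out by the authors' counting, so its level is measured less surely than its neighbours'.

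The BLM helicase and its partners RMI1 and RMI2 untangle finished recombination intermediates without exchange of the flanking DNA. All 3 fell, BLM from 21.4 ± 2.05 to 7.92 ± 0.698 CPM, RMI2 from 23.5 ± 2.27 to 11.1 ± 1.16 CPM and RMI1 from 148 ± 8.78 to 90.2 ± 4.08 CPM (SD, n = 6 each). The log2 fold changes ran from -1.44 for BLM to -0.71 for RMI1, the member with the highest level of the 3.

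End resection, which trims a break to single strands, was split. EXO1, the long-range exonuclease, fell from 52.0 ± 3.87 to 19.4 ± 1.04 CPM (SD, n = 6 each), a log2 fold change of -1.42. RBBP8, also called CtIP, which starts resection, had a log2 fold change of -0.32 (SE 0.05, adjusted p = 2.78e-05, edgeR). The MRN complex is the break sensor that holds both DNA ends and activates ATM, and its 3 subunits differed in direction. MRE11, the nuclease, was at 47.4 ± 1.85 CPM after siCHKA and 58.8 ± 3.62 CPM after siNT, a fall of 0.31 on the log2 scale (SE 0.05, adjusted p = 4.35e-05, edgeR). RAD50, the ATPase that tethers the ends, had 72.4 to 79.8 CPM after siCHKA (median 77.7) and 54.6 to 63.7 CPM after siNT (median 61.4), a rise of 0.37 (SE 0.05, adjusted p = 5.21e-06, edgeR). NBN, the subunit that binds ATM, had 78.5 to 91.8 CPM after siCHKA (median 85.3) and 68.4 to 72.1 CPM after siNT (median 71.6), a rise of 0.26 (SE 0.05, adjusted p = 0.000112, edgeR). The groups did not overlap for any of the 3. Within samples, MRE11 reads per RAD50 read went from 0.933 to 1.04 in siNT to a range of 0.587 to 0.637 in siCHKA. Rises without overlap between the groups were seen in 3 members, RAD50, NBN and PMS2, or 8.33% of the 36, against 19.1% of all tested genes.

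The 4 checkpoint kinases among the members were divided between the 2 that sense damage and the 2 that carry the signal on. ATM, which answers to double-strand breaks, had 55.5 to 84.9 CPM after siCHKA (median 65.6) and 55.2 to 76.1 CPM after siNT (median 62.9). Its log2 fold change of 0.06 (SE 0.10) did not pass the threshold (adjusted p = 0.652, edgeR). ATR, which answers to stalled forks, had 86.7 to 109 CPM after siCHKA (median 99.95) and 85.1 to 124 CPM after siNT (median 108), a log2 fold change of -0.11 (SE 0.08, adjusted p = 0.26, edgeR). For both kinases the groups overlapped over most of their range, with at least 753 reads of ATM and 1156 of ATR in each sample. CHEK1, the kinase that ATR activates, had 35.3 to 42.6 CPM after siCHKA (median 40.7) and 107 to 118 CPM after siNT (median 114). Its log2 fold change was -1.50 (SE 0.05, adjusted p = 2.07e-13, edgeR). CHEK2, the kinase that ATM activates, had 20.5 to 29.1 CPM after siCHKA (median 25.2) and 57.3 to 73.3 CPM after siNT (median 65.3), a log2 fold change of -1.38 (SE 0.09, adjusted p = 3.86e-10, edgeR). CHEK2 also has partial copies elsewhere in the genome. Within samples, there were 0.911 to 1.38 CHEK1 reads per ATR read in siNT and 0.376 to 0.466 in siCHKA. There were 0.829 to 1.19 CHEK2 reads per ATM read in siNT and 0.33 to 0.427 in siCHKA. These ratios, and those of the other pairs, were chosen after the values had been seen and are given as descriptions.

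**Figure D2:**
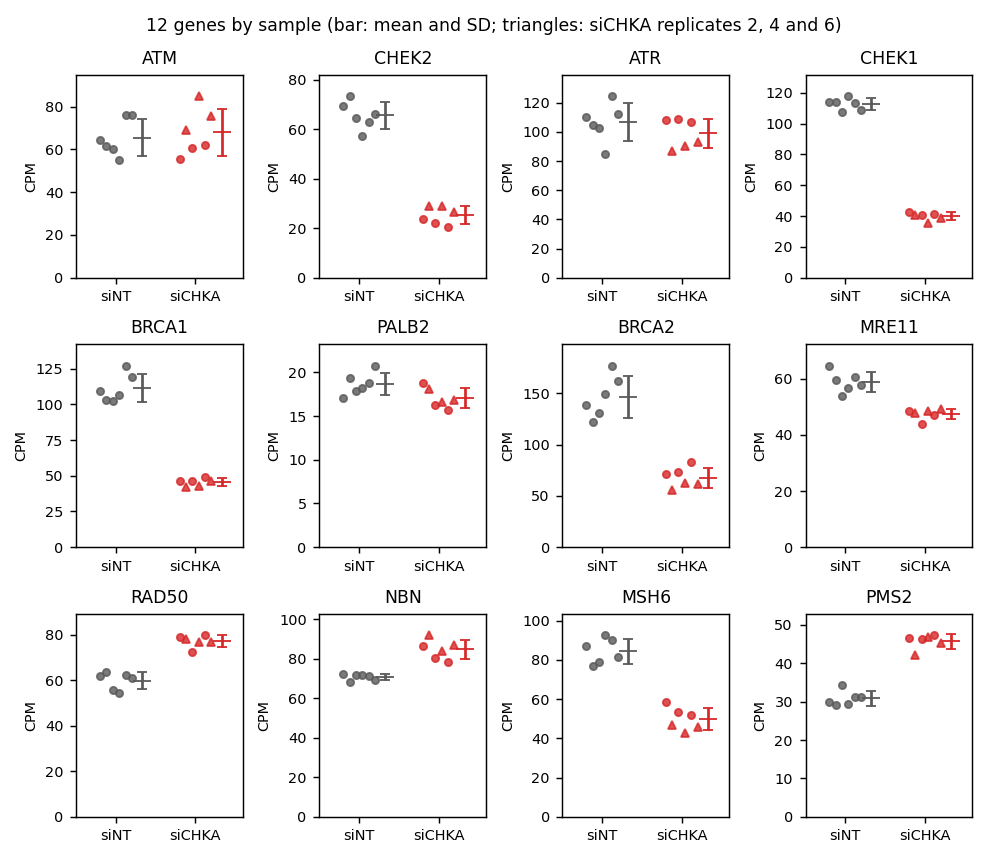
CPM of 12 genes in each siNT (grey) and siCHKA (red) sample, with the mean and SD beside the points, the vertical axes starting at 0, and triangles for siCHKA replicates 2, 4 and 6. CHEK1, CHEK2, BRCA1 and BRCA2 separate fully between the groups, ATM, ATR and PALB2 overlap, and RAD50, NBN and PMS2 lie higher after siCHKA.

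Of the mismatch repair genes, MSH6, which recognises single mispaired bases, fell from 84.5 ± 6.42 to 49.9 ± 5.80 CPM (SD, n = 6 each), a log2 fold change of -0.76 (SE 0.07, adjusted p = 1.13e-07, edgeR). PMS2, the endonuclease that acts downstream of it, showed the largest rise of the 36. It had 42.1 to 47.3 CPM after siCHKA (median 46.5) and 29.2 to 34.2 CPM after siNT (median 30.5), a log2 fold change of 0.57 (SE 0.05, adjusted p = 6.91e-08, edgeR), with no overlap. PMS2 has near-identical pseudogene copies on its chromosome, and reads shared with them were left out by the counting, so this value rests on the parts of the gene that differ. PARP1, which detects strand breaks and whose inhibitors kill cells that lack recombination, was the most abundant member. It had 284 to 349.7 CPM after siCHKA (median 323) and 455 to 525 CPM after siNT (median 481), a log2 fold change of -0.61 (SE 0.06, adjusted p = 2.85e-07, edgeR), with 65.4% of the siNT level left.

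Per length of the Ensembl canonical transcript, PARP1 stood at 123 ± 7.05 CPM per kilobase in siNT (SD, n = 6), followed by FANCI at 48.9 ± 2.46 and RMI1 at 44.9 ± 2.66. CHEK2 at 35.6 ± 2.96 and FANCG at 33.9 ± 1.75 came next. The lowest levels per length were those of BLM at 4.08 ± 0.391, BRIP1 at 3.15 ± 0.249 and RAD51D at 1.44 ± 0.083 CPM per kilobase. The place of RAD51D rests on a canonical transcript of 9966 bases, of which 8732 are 3′ UTR. Before division by length its siNT mean of 14.4 CPM was above those of FANCB (13.5) and FANCL (7.90). The authors counted reads on their own gene models, so the lengths used here may not match the counted exons. Of the 35 neighbouring pairs in this order, 9 were further apart than their standard deviations. The fall therefore took in abundant members such as FANCI and scarce ones such as BLM alike. ATR stood near the middle of the order at 13.1 ± 1.597 CPM per kilobase and ATM lower at 5.08 ± 0.672.

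**Figure D3:**
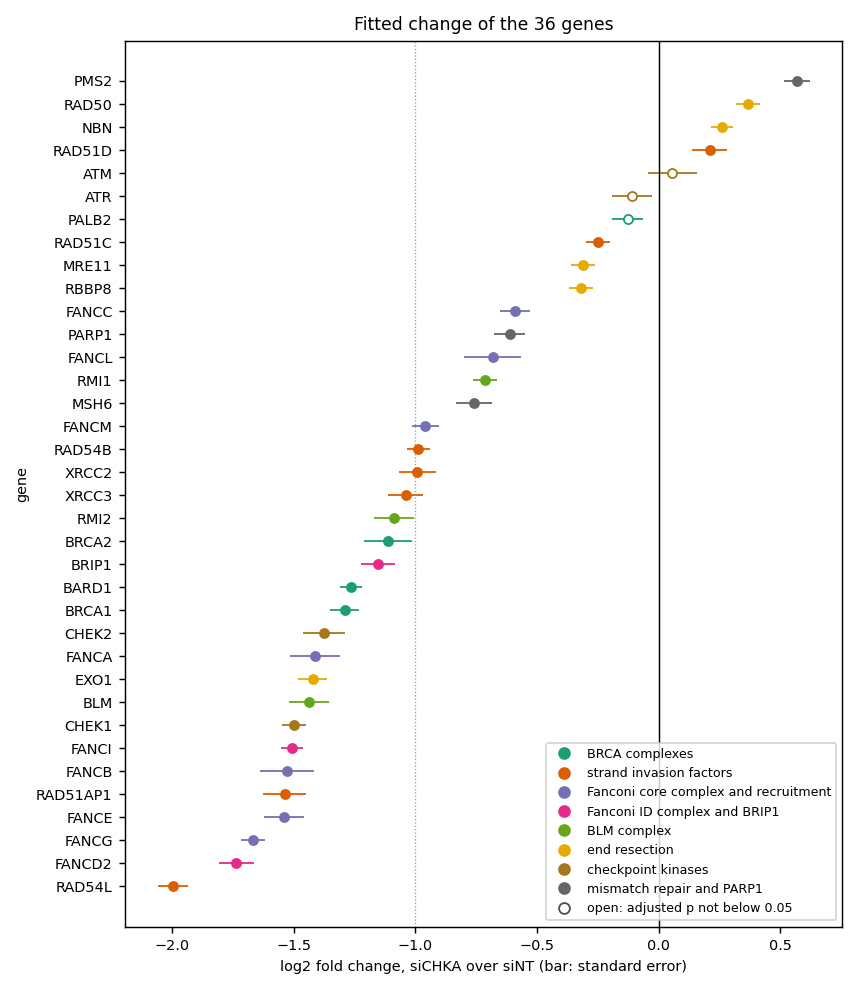
Fitted log2 fold change of siCHKA over siNT for the 36 genes in order of size, with bars for the standard error, colors for the role and open points for an adjusted p not below 0.05. RAD54L at -1.997 and PMS2 at 0.57 are the ends of the order, and the dotted line marks a 2-fold fall.

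The 2 sets of siCHKA samples differed in 17 of the 36 members without overlap, against 47.5% of all tested genes, and since the sets were recognised from these data this is a description. Replicates 2, 4 and 6 were higher for 8 of the 17 and replicates 1, 3 and 5 for 9. ATM and ATR differed between the sets in opposite directions. ATM averaged 76.6 CPM in replicates 2, 4 and 6 and 59.3 CPM in replicates 1, 3 and 5, while ATR averaged 89.96 and 108 CPM. FANCL, CHEK2, FANCB and RAD51AP1 were higher in replicates 2, 4 and 6, FANCL by 0.48 on the log2 scale, and BRCA2, MSH6 and PARP1 were higher in replicates 1, 3 and 5, BRCA2 by 0.34 in mean log2 CPM. Against all siNT samples, replicates 2, 4 and 6 alone gave 30 lower and 4 higher members, and replicates 1, 3 and 5 alone gave 29 and 3. ATR and RAD51D passed the threshold with replicates 2, 4 and 6 but not with replicates 1, 3 and 5. RAD51D stood at a log2 fold change of 0.31 (adjusted p = 0.0019, edgeR) in replicates 2, 4 and 6 only and of 0.09 (adjusted p = 0.332) in replicates 1, 3 and 5 only. ATR stood at a log2 fold change of -0.25 (adjusted p = 0.0198, edgeR) in replicates 2, 4 and 6 only and of 0.02 (adjusted p = 0.851) in replicates 1, 3 and 5 only. ATR also passed without siNT replicate 4 (log2 fold change -0.18, adjusted p = 0.0486).

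Other genes of the same pathways, listed by function and also with earlier results known, moved less uniformly. Of 21 tested recombination genes outside the 36, 10 were lower and 6 higher, with a median log2 fold change of 0.01. POLQ, a polymerase of an alternative end joining pathway, had a log2 fold change of -1.56, the nuclease subunit EME1 of -1.41 and the resection nuclease DNA2 of -1.04. ZSWIM7, SWSAP1, SFR1 and HELQ rose by 0.56, 0.36, 0.29 and 0.23. With siCHKA replicates 1, 3 and 5 only, 2 recombination genes were higher. Of 16 further Fanconi genes, 7 were lower and 5 higher (median -0.10). UBE2T, the conjugating enzyme of the core complex, had a log2 fold change of -1.32, RFWD3 of -0.998, and USP1, which removes the mark from FANCD2, of -0.58, whereas FANCF, a core complex subunit, rose by 0.40. The core complex was thus not lower in all of its subunits. Of 25 further checkpoint and damage signalling genes, 18 were lower and 3 higher (median -0.50), with log2 fold changes of -1.68 for the scaffold MDC1, -1.31 for CDC25C, -1.15 for TIMELESS and -0.92 for TOPBP1, which activates ATR. ABRAXAS1, a subunit of a BRCA1 complex, rose by 1.07.

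The medians of the other repair pathways lay nearer to the 0.03 of all tested genes than that of the 36. Of 10 tested end joining genes 4 were lower and 2 higher, and XRCC6, the smaller Ku subunit, had a log2 fold change of -1.33 while LIG4 rose by 0.44. Of 15 base excision repair genes 7 were lower and 3 higher, UNG with a log2 fold change of -1.37 and NEIL3 with one of -1.28. Of 16 nucleotide excision repair genes 3 were lower and 7 higher, and none of the named ones moved by as much as 2-fold, DDB2 having a log2 fold change of -0.63 and UVSSA of 0.57. Of 5 further mismatch repair genes 2 were lower and 1 higher, and PMS1, like PMS2, rose, by 0.46, while MLH3 fell by 0.42. The medians were -0.21 for end joining, -0.13 for base excision repair, 0.01 for nucleotide excision repair and -0.07 for mismatch repair. No test compared the lists with each other.

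**Figure D4:**
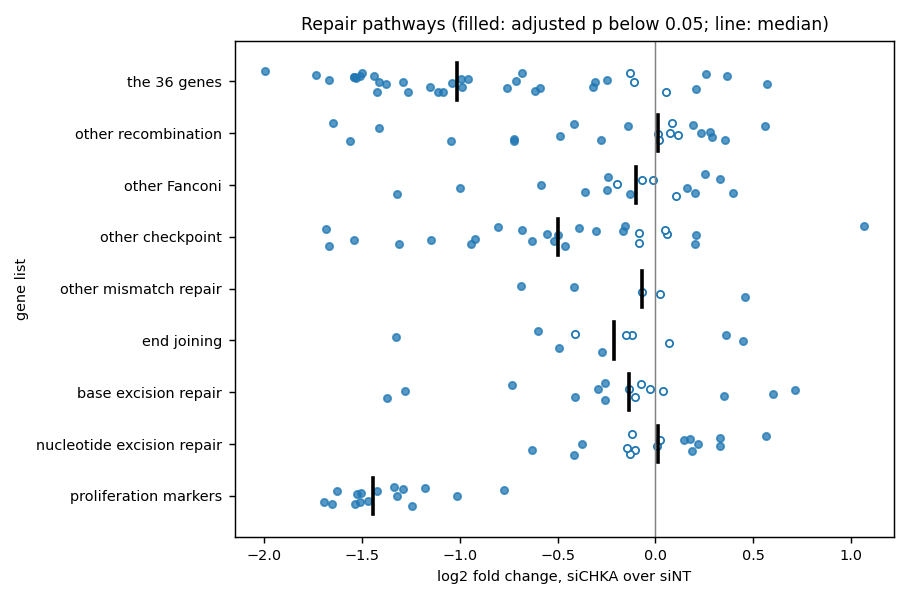
Log2 fold change of siCHKA over siNT for each tested gene of the 36 and of 8 other lists, with filled points for an adjusted p below 0.05 and a black line at each list's median. The 36 genes (median -1.02) lie to the left of the other repair lists, near the proliferation markers (median -1.44).

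The 7-base words GCCAGAT and TGCCCTT, which earlier work on these data associated with falls across genes, were looked up in the 3′ UTR of the canonical transcript of each member. A word was present in 7 of the 36 members (19.4%) and in 23.6% of the 12296 tested genes with a 3′ UTR. The median 3′ UTR had 1011 bases in the members and 1329 bases in all these genes. The 7 were BARD1, BRCA2, RAD51AP1, RAD51D, FANCC, FANCD2 and BRIP1, of which 6 were lower and RAD51D was higher, with a median log2 fold change of -1.15. Of the 29 members without either word, 23 were lower and 3 higher, with a median of -0.99. Over all tested genes the median was -0.12 with a word and 0.04 without. Since the words were taken from earlier results of these same data, that difference is a description and adds no support. The part of these words in the fall was not tested.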

How the data were processed

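Libraries were sequenced as single reads of 40 bases. The authors mapped them with TopHat 2.0.4 (GRCh37, Ensembl release 64), counted genes with HTSeq-count 0.5.3p9 and deposited counts that were not normalized, 4 count files per sample (DESeq 1.10.1 was their test). Reads with several alignments or on overlapping genes were left out. Rows that name no gene held 33.9% to 39.0% of the counted alignments and were not used. The 4 files of a sample differed by a chi-square per degree of freedom of 0.983 to 1.01 and were summed. Symbols, transcript lengths, 3′ UTRs and gene coordinates were taken from GENCODE 44 (GRCh38), which held 82.8% of the deposited Ensembl identifiers; promoters came from RefSeq.

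R 4.3.3 and edgeR 4.0.16 were used for the test (quasi-likelihood, groups as the only term, TMM scaling, filterByExpr, Benjamini-Hochberg adjustment over all 14501 tested genes, threshold 0.05). Log2 CPM used a prior count of 2. Each standard error is the size of the log2 fold change over the root of its F value. The floor of 3 reads covers counting error only, while the standard errors include the spread between samples. In simulated counts of 6 against 6 samples, edgeR recovered 90.5% of 200 genes changed 2-fold among 14050 with 7 false calls. DESeq2 1.42.0 recovered 90.0% with 13 false calls. The simulation gave every gene the same spread between samples, had no sets of samples and changed few genes. It checks the code, and its error rates do not carry over to the real samples. The members and the other gene lists were chosen with earlier results of these data known. All 36 members were named, and values over samples were given for CHKA, for 8 members set by name, for the 8 with the lowest and the 5 with the highest fold change past the threshold; of each other list, at most 4 genes in each direction. Where members are called non-overlapping, a two-sided exact permutation test on log2 CPM gave p = 0.00216, the smallest that 6 against 6 samples allow. That value follows from the lack of overlap itself and adds no support to it. Alternatives were RLE normalization, DESeq2, other filters, the replicate block, each replicate left out, each set of 3 siCHKA samples, and a 2-fold minimum. Some genes of the other lists are not reported here by name.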

Additional observations from a re-analysis of the deposited data

Results flagged for a closer look

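Among 74 groups of 6 samples, CHKA and the 36 members in siCHKA and siNT, 2 held a sample far from the others, and chance gives about 3.7. FANCG in siCHKA replicate 1, at 24.96 CPM, lay below the nearest sample, at 27.3 CPM, by 0.671 of the group's range. RBBP8 in siNT replicate 6, at 64.5 CPM, lay below the nearest sample, at 69.1 CPM, by 0.677 of the group's range. Both values lay on their own group's side of the other group's samples.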

How the results depend on the processing

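Over 19 refits, 33 of the 36 member genes kept their direction and their side of the threshold in each. The exceptions were RAD51D, ATM and ATR; the cause was not tested for any of them. RAD51D was no longer past the threshold in 4 refits, 3 named above and the fit with the replicate block (adjusted p = 0.0507). The log2 fold change of ATM turned to -0.02 without siCHKA replicate 4, to -0.0017 without siNT replicate 4 and to -0.14 with siCHKA replicates 1, 3 and 5 only, and that of ATR to 0.0208 with siCHKA replicates 1, 3 and 5 only; with each replicate left out, ATM ranged from -0.0182 to 0.107. With each replicate left out in turn, 29 to 30 members were lower and 3 to 4 higher, the median of the members was -1.06 to -0.998, and 4221 to 4402 tested genes were lower and 4435 to 4596 higher. The median was -0.97 with siCHKA replicates 1, 3 and 5 only. A 2-fold minimum left 18 members lower and 0 higher (edgeR; also 0 at an unadjusted p below 0.05 and with DESeq2), and 654 tested genes lower and 785 higher, since it removes smaller changes by construction. Higher genes numbered 3 in the further Fanconi list and 4 in nucleotide excision repair with no filter on low counts; with siCHKA replicates 1, 3 and 5 only they numbered 2 in the further recombination list, 3 in the further Fanconi list and 1 in end joining, and 5 nucleotide excision repair genes were lower. With the replicate block, 29 members were lower and 3 higher, 4273 tested genes lower and 4494 higher; same-numbered samples correlated by -0.40 to 0.32 and 1 of the 6 siCHKA samples correlated best with its own number, so the numbers were not taken as pairs. CHKA ranged from -4.27 to -3.61.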
